A study of Mus musculus with 4 samples.

Results

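The genes described here were the mouse kinesins and tubulins expressed in muscle satellite (stem) cells (MuSCs). They were the protein-coding genes in the count table whose symbol began with Kif and a digit, Kifc, Tuba or Tubb, or was Tubg1 or Tubg2, and there were 52 of them among 19353 genes, of which 13943 were protein coding. The symbols gave 13 kinesins with a known role in the mitotic spindle or cytokinesis, 13 transport kinesins, 11 other kinesins, 14 tubulins and Kif1bp, which binds kinesins but is not a motor. All MuSCs came from mice of the genotype Pax7-CreERT2:Rosa-YFP, in which tamoxifen lets a Cre recombinase expressed from the Pax7 locus switch on the fluorescent reporter YFP. Cells with the reporter were sorted, 100 to a tube. They came either from sham-operated plantaris muscle, where the skin alone was cut, or from overloaded plantaris muscle, where the tendons of its synergists were cut (tenotomy), with 2 libraries in each group taken 4 days after surgery. The label therefore follows every descendant of a cell that expressed Pax7 when tamoxifen was given. The ages of the mice were not given in the sources used here, nor whether both libraries of a group were from the same mouse, so p-values measure the spread between these libraries, which may be technical.

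Microtubules are hollow polymers of α- and β-tubulin, and γ-tubulin nucleates them at centrosomes and along other microtubules. Kinesins are ATP-driven motors that walk along microtubules with cargo, slide them against each other or take their ends apart. In a quiescent MuSC the microtubules serve transport and cell shape, whereas a dividing cell rebuilds them into a spindle and then a midbody, and many spindle motors are made only in late cell cycle.

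Libraries were made by CEL-Seq2, which reads the poly(A) end of a transcript and tags every captured molecule with a unique molecular identifier (UMI). A molecule thus counts as 1 UMI whatever its length, so levels of different genes can be set side by side as molecules captured. This holds less well for genes that share sequence near the 3′ end, as several tubulins do, since their reads may be lost or misassigned. Totals were 269683 and 260488 UMIs for sham and 387955 and 483528 for overloaded MuSCs, or 2697, 2605, 3880 and 4835 UMIs per cell. Normalized levels are CPM (UMIs scaled to equal library totals) after TMM normalization, by which a count of 3 stood for between 6.08 and 13.6 CPM. The 10 MuSC markers examined (such as Pax7, Myf5 and Cdh15) were all detected in each of the 4 libraries. In edgeR's quasi-likelihood test, 52.1% of the 7228 genes tested passed an adjusted p of 0.1, 25.8% higher and 26.3% lower in overloaded muscle, with a median log2 fold change of 0.05. Each count of kinesins, tubulins, partners or markers below stands against these shares. All samples were bulk, so a change in the number of cells of a kind and a change in the RNA of each cell cannot be told apart.

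The mitotic kinesins were nearly absent from sham MuSCs and present in overloaded MuSCs. Their 13 genes together had 1 and 6 UMIs in the sham libraries against 154 and 230 in the overloaded libraries, or 0.000371% and 0.00230% against 0.0397% and 0.0476% of all UMIs. As a share of UMIs the sum was 33.4 times as large in overloaded muscle, with an exact 95% interval of 16.04 to 83.6 that covers counting error only. In sham MuSCs, 8 of the 13 genes had no UMI in either library, whereas 12 and 13 of them were detected in the overloaded libraries. Only 6 of the 13 could be tested, and each of these 6 passed the filter on low counts through the overloaded libraries alone. A gene kept in this way had to differ, so their calls are given gene by gene and are no count in support.

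Kif11, the tetrameric motor that pushes spindle poles apart, had 0 and 1 UMIs in sham MuSCs and 27 and 34 in overloaded MuSCs. Kif15, which can share this task, had 0 and 2 against 17 and 31. For Kif22, a chromosome arm motor, the counts were 1 and 0 against 23 and 41. Both overloaded libraries were above both sham libraries for each of these genes, as the filter that kept them required. The ratio of normalized levels was 31.3 for Kif11 (exact 95% interval 5.41 to 1256), 32.8 for Kif22 (5.68 to 1316) and 12.3 for Kif15 (3.23 to 104.5). The fitted log2 fold changes of these genes were 4.75 ± 0.74 (SE), 4.81 ± 0.76 and 3.51 ± 0.71, with adjusted p of 8.09e-05, 9.19e-05 and 0.000801. Their size rested on single sham UMIs. Without sham replicate 1 they were 3.84, 7.74 and 2.54, and without sham replicate 2 they were 7.69, 3.96 and 7.34.

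Kif2c, a depolymerase at the centromere that corrects wrong attachments of chromosomes, had no UMI in sham MuSCs and 21 and 26 in overloaded MuSCs, at least 8.03-fold higher when the sham group is set to a floor of 3 counts (adjusted p = 7.90e-05). The motors of cytokinesis were also among the mitotic genes. Kif23, the motor of the centralspindlin complex at the midzone, had 0 and 2 UMIs against 16 and 37, a ratio of 13.6 (3.58 to 115; adjusted p = 0.000848). Kif20b had 0 and 1 against 19 and 18, a ratio of 19.0 (3.20 to 769.5; adjusted p = 0.000679). The groups did not overlap for any of the 6 tested genes, but the filter that kept them had fixed this. Over all genes tested, groups did not overlap for 72.9% (37.5% with the overloaded libraries above and 35.4% with them below). With a scaling offset based on the mean log value over libraries, a setting added after the data were seen, none of the 6 remained past the threshold, with Kif11 still at 2.06 on the log2 scale (adjusted p = 0.152) and Kif20b at 0.53 (adjusted p = 0.803). The same kind of offset based on edgeR's average abundance kept all 6.

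The other 7 mitotic kinesins were too low to test and had no UMI in sham MuSCs. Kif18b, which shortens astral microtubules, had 15 and 11 UMIs in the overloaded libraries, at least 4.45-fold higher than the floor. Kif4, a chromosome-bound motor of the midzone, had 10 and 12, at least 3.76-fold higher. Kif14, a motor of the midbody, had 2 and 8, and Kif18a, which dampens chromosome movements at the plate, had 2 and 6. Kif20a had 1 and 2, Kifc1 had 1 and 1, and Kifc5b had 0 and 3, so these 3 genes stayed at or under the floor in both groups. Kifc1 and Kifc5b also share sequence near the 3′ end, where 54.2% of the 36-base words in the last 500 bases of Kifc1 recur in Kifc5b, so reads may be split between them.

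**Figure D1:**
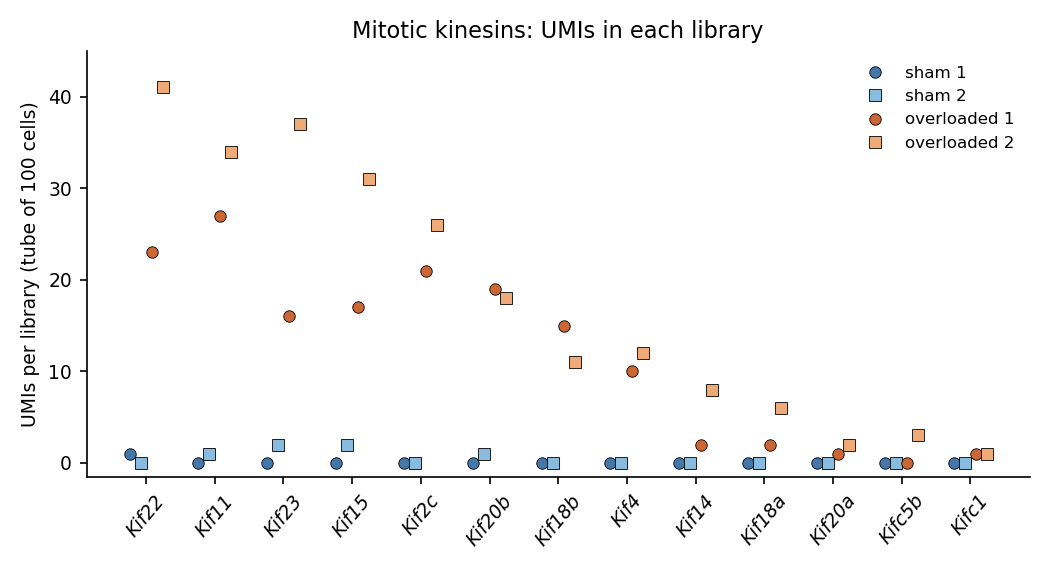
UMIs per library (a tube of 100 cells, vertical axis, linear) for the 13 mitotic kinesins along the horizontal axis, each symbol standing for 1 library. The sham libraries sit between 0 and 2 for every gene, and the overloaded libraries reach 41 for Kif22.

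Promoter sequences were examined as a description of the classes, not as an account of the counts above. RefSeq windows of the GRCm38.p6 build, from 250 bases before to 50 bases after the gene start, were found for 40 of the 52 genes. They were searched on both strands for CCAAT, and for TTTGAA or TTCGAA, forms of the cell cycle genes homology region that is known from genes of late cell cycle. TTTGAA or TTCGAA was present in 11 of the 12 windows of mitotic kinesins (91.7%), in 0 of 9 windows of transport kinesins, in 3 of 8 windows of other kinesins, in 1 of 11 tubulin windows and in 17.6% of 21263 protein-coding windows. CCAAT was present in 8 of the 12 mitotic windows (66.7%), 3 of 9 transport windows, 3 of 8 windows of other kinesins and 5 of 11 tubulin windows, against 38.2% of all windows. Both were present in 8 of the 12 mitotic windows, in 0 of 9 transport windows, in 3 of 8 windows of other kinesins (37.5%), in 1 of 11 tubulin windows and in 7.11% of all windows. The window of Kif18a held neither. The 12 mitotic windows include those of Kifc1 and Kifc5b, whose counts stayed at or under the floor in both groups. Matches were counted separately even where they shared a base, and TTCGAA reads alike on both strands. A match is a description of letters, and binding to them was not measured.

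The 4 stretches below show a mitotic kinesin with both motifs (Kif11), another with TTTGAA alone (Kif15), a transport kinesin (Kif1b) and the tubulin with the largest fitted rise (Tubb5). Each runs 5′ to 3′ on the strand of the gene, with the motifs in capitals. ATTGG is CCAAT and TTCAAA is TTTGAA read on the opposite strand.
Kif11, chr19:37376232-37376381, plus strand: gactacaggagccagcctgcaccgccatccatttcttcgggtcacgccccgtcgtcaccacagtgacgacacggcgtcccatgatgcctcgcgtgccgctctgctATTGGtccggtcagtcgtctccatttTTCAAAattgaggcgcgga
Kif15, chr9:122950926-122951075, plus strand: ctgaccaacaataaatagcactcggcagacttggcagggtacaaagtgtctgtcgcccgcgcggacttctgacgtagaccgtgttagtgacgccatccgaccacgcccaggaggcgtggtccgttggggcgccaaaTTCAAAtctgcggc
Kif1b, chr4:149307699-149307848, minus strand: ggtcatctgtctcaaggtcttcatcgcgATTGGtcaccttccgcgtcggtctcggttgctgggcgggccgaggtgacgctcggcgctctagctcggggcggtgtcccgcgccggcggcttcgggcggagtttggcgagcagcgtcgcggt
Tubb5, chr17:35838302-35838451, minus strand: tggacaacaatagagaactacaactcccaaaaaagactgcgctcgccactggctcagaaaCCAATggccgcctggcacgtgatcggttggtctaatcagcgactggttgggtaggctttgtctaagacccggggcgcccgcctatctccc
In Kif11 the CCAAT match began 45 bases and the TTTGAA match 19 bases before the RefSeq start, and in Kif15 a TTTGAA match also began 19 bases before it.

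The transport kinesins showed another picture. They were well detected in sham MuSCs, with 199 and 200 UMIs over the 13 genes, against 377 and 397 in overloaded MuSCs. After scaling their summed level was 866 and 906 CPM in sham and 980 and 804 CPM in overloaded MuSCs, so that the groups overlapped. As a share of all UMIs the groups did not overlap, at 0.0738% and 0.0768% in sham against 0.0972% and 0.0821% in overloaded MuSCs. The ratio of these shares was 1.18, with an exact interval of 1.044 to 1.335 that covers counting error only. Of the 13 genes 6 were tested, and none of the 6 passed the threshold in either direction by edgeR. At an unadjusted p of 0.05 the count was also 0, as it was at the threshold by DESeq2 and by limma-voom. Their median log2 fold change was -0.04, against 0.05 for all genes tested, and no gene of the 6 had groups without overlap.

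Kif5b, the ubiquitous heavy chain of conventional kinesin, was the most abundant kinesin, with 76 and 77 UMIs in sham and 137 and 163 in overloaded MuSCs. Its normalized level was 340 ± 12.7 CPM (SD, n = 2) against 343 ± 18.5, a log2 fold change of 0.01 with a 95% interval of -0.35 to 0.37. Kif1b, which carries mitochondria and vesicles, had 51 and 49 UMIs against 90 and 92, and a log2 fold change of -0.09 (-0.51 to 0.33). Both intervals included 0.

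The less abundant transport kinesins were measured less precisely. Kif1c, a vesicle motor, had 21 and 15 UMIs against 36 and 40, Kif13b 15 and 18 against 43 and 32, and Kif13a, a motor of endosomes, 19 and 21 against 34 and 24. Kif3a, a subunit of the kinesin-2 motor of cilia, had 5 and 14 against 17 and 15. The groups overlapped after scaling for all of these, and the log2 fold changes lay between -0.41 for Kif13a and 0.24 for Kif13b. Counts of UMIs per tube, without scaling, gave another reading, since overloaded tubes held more UMIs of most genes (median log2 fold change of all tested genes 1.01). On that scale 4 of the 6 passed the threshold as higher, among them Kif5b at 0.97 (adjusted p = 0.00101) and Kif1b at 0.86 (adjusted p = 0.00918). Kif5b was also higher with offsets on abundance (0.56, adjusted p = 0.00918).

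Of the 7 transport kinesins too low to test, Kif3b and Kif5c are named here after their values were seen. Kif3b, the partner of Kif3a, had 2 and 1 UMIs in sham and 10 and 10 in overloaded MuSCs, a ratio of 3.42 (exact 95% interval 1.01 to 18.0). Kif5c had 1 and 1 against 3 and 9, a ratio of 3.08 (0.69 to 28.3). Kif16b, an endosomal motor, had 6 and 4 against 5 and 9. Kif1a, Kif5a, Kif17 and Kifc2, of which the first 3 are best known from neurons, had no more than 2 UMIs in any library.

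Among the 11 other kinesins, Kif2a and Kif21a were tested, and neither passed the threshold by edgeR, DESeq2 or limma-voom or an unadjusted p of 0.05 by edgeR. Kif2a, a depolymerase with roles in neurons and in the spindle, had 19 and 14 UMIs in sham and 33 and 38 in overloaded MuSCs (log2 fold change 0.14 ± 0.32, adjusted p = 0.741). Kif21a, which slows microtubule growth at the cell cortex, had 13 and 9 against 15 and 24 (-0.14 ± 0.40, adjusted p = 0.798). Kif26b, named after its values were seen, had no UMI in sham and 8 and 6 in overloaded MuSCs, at least 2.39-fold higher. Kif7, a ciliary regulator of Hedgehog signaling, had 1 and 3 UMIs against 3 and 6, Kif24 had 2 and 4 against 1 and 5, and the other 6 genes had no more than 2 in any library. Kif1bp, a protein that binds kinesins, passed the filter through the overloaded libraries alone, with 6 and 5 UMIs against 17 and 19 (0.74 ± 0.44, adjusted p = 0.192). It was past the threshold by library sizes alone (1.015, adjusted p = 0.0666) and by UMIs per tube (1.69, adjusted p = 0.00699).

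**Figure D2:**
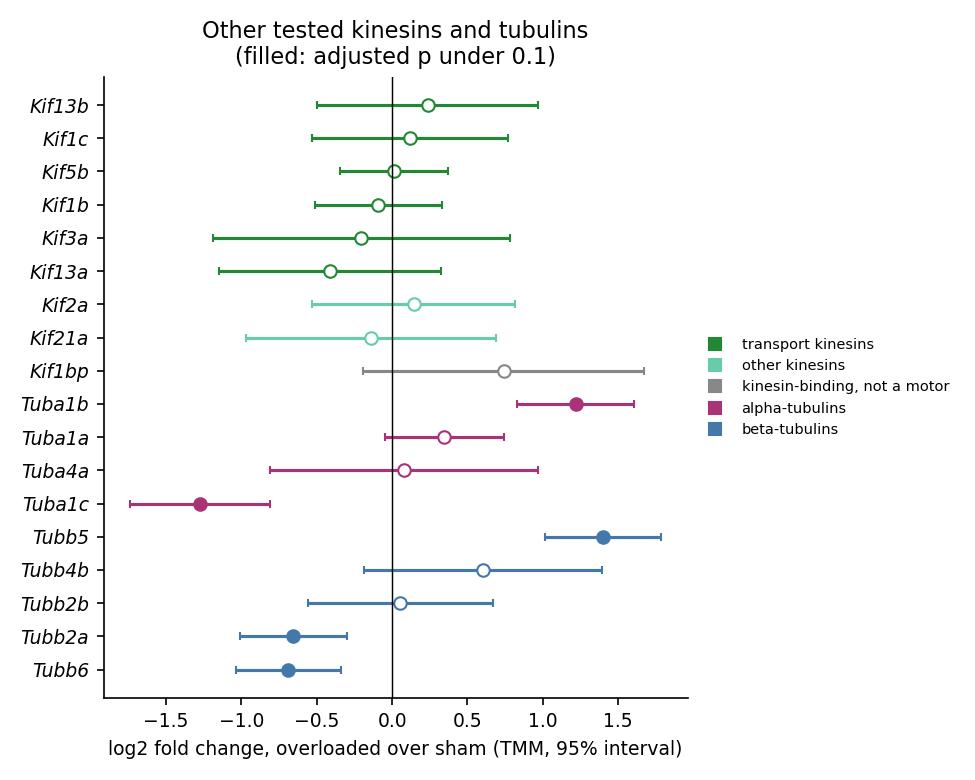
Fitted log2 fold change of overloaded over sham MuSCs (horizontal axis, after TMM scaling) with its 95% interval for the tested genes other than the mitotic kinesins and Tubb4a, colored by class and filled where the adjusted p was under 0.1. All 6 transport kinesins straddle 0, whereas the tubulins spread from Tubb5 at 1.40 to Tuba1c at -1.27.

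Calls among the tested tubulins went in both directions, at a share near that of all genes tested. Of the 14 genes 10 were tested, and 2 were higher, 4 lower and 4 not past the threshold in overloaded MuSCs, which is 6 of 10 against a background of 52.1%. Summed over all 14, the normalized level was 2512 and 2383 CPM in sham and 2878 and 2509 CPM in overloaded MuSCs, and the groups overlapped. Taken as a share of all UMIs they did not, with 0.214% and 0.202% in sham against 0.285% and 0.256% in overloaded MuSCs. These shares gave a ratio of 1.294, with an exact interval of 1.204 to 1.391 that covers counting error only. The split of calls depended on scaling, with 4 higher and 4 lower by library sizes alone, 3 and 2 with offsets on abundance, and 6 and 1 by UMIs per tube.

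Tubb5 and Tuba1b, a β- and an α-tubulin made in most cell types and abundant in dividing cells, were the 2 that rose. Tubb5 (ENSMUSG00000001525, at chr17:35833921-35838306 on the minus strand in GRCm38) had 61 and 61 UMIs in sham and 306 and 316 in overloaded MuSCs, or 271 ± 7.64 against 718 ± 110 CPM (SD, n = 2). Its log2 fold change was 1.40 ± 0.18 (adjusted p = 1.52e-05). Tuba1b had 44 and 40 UMIs against 172 and 209, or 186 ± 7.30 against 435 ± 16.96 CPM, which gave 1.22 ± 0.18 on the log2 scale (adjusted p = 5.98e-05). Both stayed higher under every scaling tried, up to 2.35 and 2.18 by UMIs per tube.

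Tuba1c, another α-tubulin of the same chromosome 15 cluster as Tuba1a and Tuba1b, went the other way. It had 57 and 49 UMIs in sham and 41 and 44 in overloaded MuSCs, and its normalized level fell from 235 ± 18.5 to 97.85 ± 12.4 CPM (log2 fold change -1.27 ± 0.22, adjusted p = 0.00021). By UMIs per tube the direction held but the call did not (-0.32, adjusted p = 0.379). Tuba1a had 67 and 69 UMIs against 169 and 165, and a log2 fold change of 0.35 ± 0.19 that did not pass the threshold (adjusted p = 0.144) but did by library sizes alone (0.62, adjusted p = 0.0068), with offsets on abundance (0.89, adjusted p = 0.000312) and without overloaded replicate 2 (0.54, adjusted p = 0.0126). Tuba4a, an isotype of muscle and nerve, had 20 and 12 against 15 and 52 UMIs, or 87.1 and 54.4 against 39.0 and 105 CPM, and the groups overlapped. Tuba8 had no more than 1 UMI in any library.

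Tubb2a and Tubb6 were the most abundant β-tubulins of sham MuSCs, and both were lower in overloaded MuSCs after TMM scaling. Tubb2a had 147 and 139 UMIs in sham and 174 and 177 in overloaded MuSCs, or 635 ± 7.21 against 405 ± 66.45 CPM (log2 fold change -0.65 ± 0.17, adjusted p = 0.00471). Tubb6, an isotype common in muscle and other mesodermal cells, had 133 and 110 against 133 and 160, or 539 ± 57.0 against 335 ± 15.4 CPM (-0.69 ± 0.17, adjusted p = 0.003). Their direction rested on the scaling, since with offsets on abundance the values were 0.11 for Tubb2a (adjusted p = 0.567) and -0.01 for Tubb6 (adjusted p = 0.959), and by UMIs per tube 0.30 and 0.27.

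Tubb4a, an isotype of the nervous system, was the tubulin with the largest fitted fall. It had 10 and 8 UMIs in sham MuSCs and 0 and 2 in overloaded MuSCs, a ratio of 0.057 with an exact 95% interval of 0.0064 to 0.24 (adjusted p = 0.000208). It passed the filter through the sham libraries alone, so a difference was required for it to be tested. Tubb3, the β-tubulin best known from neurons, moved the other way, with 0 and 1 against 9 and 9 UMIs, a ratio of 9.23 (1.46 to 385), and was too low to test. Of the 9 Schwann and neuronal markers, Elavl4, Nefl, Snap25 and Sox10 were not listed in the count table, but the list as a whole had 4 and 8 UMIs in sham and 23 and 26 in overloaded libraries. Most of these were Ngfr, with 3 and 6 against 15 and 21 (log2 fold change 1.02, adjusted p = 0.0919). Ngfr was the 1 gene of the list that was tested, and it passed the filter through the overloaded libraries alone. Its call was lost by DESeq2 (adjusted p = 0.438) and limma-voom (adjusted p = 0.136), and without sham replicate 1 (0.59, adjusted p = 0.475), overloaded replicate 1 (adjusted p = 0.145) or overloaded replicate 2 (adjusted p = 0.272). The part of such cells in the values of Tubb3 and Tubb4a was not tested.

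Tubb2b had 17 and 28 UMIs in sham and 43 and 48 in overloaded MuSCs, with a log2 fold change of 0.05 ± 0.29. Tubb4b, a ubiquitous isotype found also in cilia, had 18 and 7 against 33 and 41 (0.60 ± 0.38, adjusted p = 0.205), and passed the threshold without sham replicate 1 (1.40, adjusted p = 0.0272) and by library sizes alone (0.88, adjusted p = 0.0563). The γ-tubulins were too low to test. Tubg1 had 3 and 1 UMIs against 11 and 12, a ratio of 2.95 with an interval of 1.01 to 11.7, and Tubg2 had 0 and 0 against 1 and 3.

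The make-up of the tubulin pool within a library does not depend on how libraries are scaled. Tubb5 was 15.8% and 17.2% of β-tubulin UMIs in sham MuSCs and 43.8% and 42.0% in overloaded MuSCs. In contrast, Tubb2a went from 38.1% and 39.3% to 24.9% and 23.5%, and Tubb6 from 34.5% and 31.1% to 19.1% and 21.3%. The leading β-tubulin was thus Tubb2a in both sham libraries and Tubb5 in both overloaded libraries. The exact 95% intervals of Tubb5 ran from 12.3% to 21.6% over the sham libraries and from 38.4% to 47.6% over the overloaded libraries, and those of Tubb2a and Tubb6 did not meet between the groups either.

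Among α-tubulins, Tuba1b went from 23.4% and 23.4% of UMIs in sham to 43.3% and 44.4% in overloaded MuSCs. Tuba1c went from 30.3% and 28.7% to 10.3% and 9.34%. Tuba1a was 35.6% and 40.4% against 42.6% and 35.0%, and its groups overlapped. The intervals of Tuba1b and of Tuba1c did not meet between the groups. With 2 libraries in each group, an exact two-sided permutation test of such shares cannot give a p below 0.333, so no test was made.

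The α-tubulin genes are hard to tell apart by sequence. Of the 36-base words in the last 500 bases of the longest coding transcript, 57.6% of those of Tuba1a, 65.0% of Tuba1b and 70.5% of Tuba1c recur in other genes, mostly in each other or in the pseudogene Gm17383, and the split of reads between them is uncertain to that extent. For Tubb2a the share was 48.2%, mostly shared with Tubb2b, and for Tubb5 and Tubb4a it was 0%. For Tubb4b it was 43.2%, shared with genes such as Tubb4b-ps1 and Tubb4b-ps2. Tubb6 shared 2.58% with Tubb3.

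**Figure D3:**
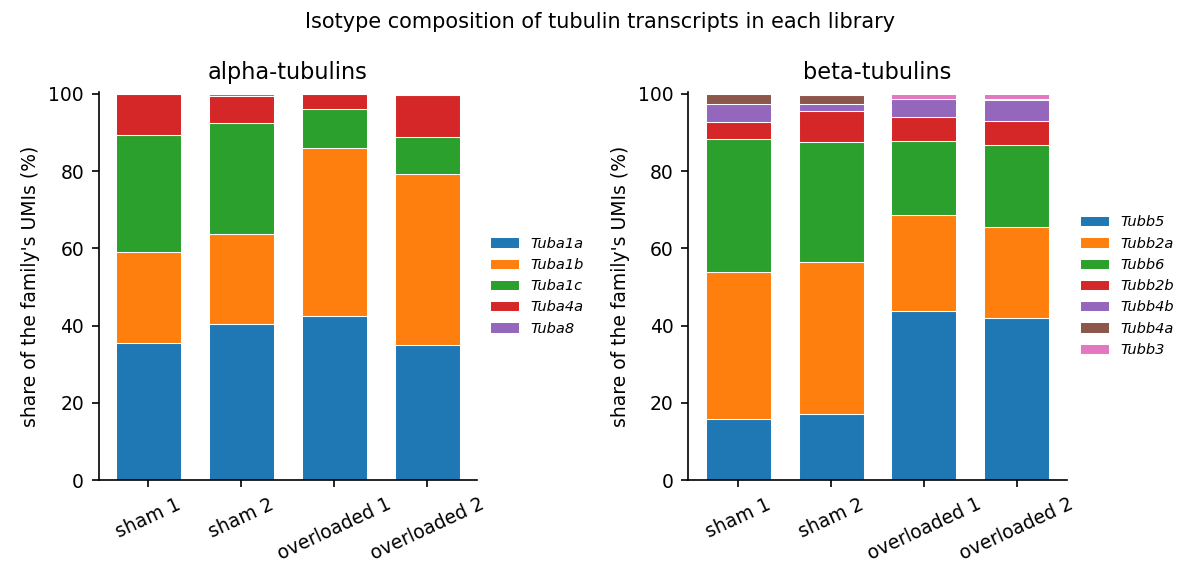
Share of each isotype (percent of the family's UMIs, vertical axis) among α-tubulin and β-tubulin transcripts in each of the 4 libraries. Tubb5 takes 15.8% and 17.2% of β-tubulin in sham and 43.8% and 42.0% in overloaded libraries, and Tuba1c takes 30.3% and 28.7% against 10.3% and 9.34% of α-tubulin.

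**Figure D4:**
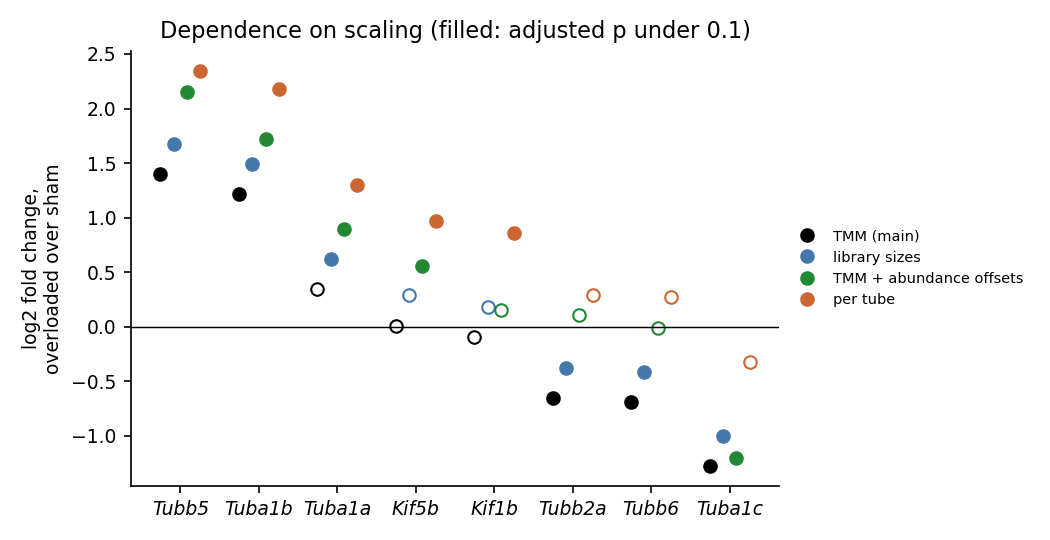
Log2 fold change of overloaded over sham MuSCs (vertical axis) for 8 genes under 4 scalings, filled where the adjusted p was under 0.1. Tubb5 and Tuba1b are above 0 under all 4, Tuba1c is below 0 under all 4, and Tubb2a and Tubb6 lie below 0 by TMM and library sizes and above 0 per tube.

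Partners of these genes were counted in the same fit, in which 25.8% of all genes tested were higher and 26.3% lower. Of 18 spindle assembly partners 17 were tested and 16 were higher, but 14 of the 17 passed the filter through the overloaded libraries alone. Racgap1 was among these 14, so a difference was required for it to be tested. Racgap1, which pairs with Kif23 in centralspindlin, had 2 and 2 UMIs in sham and 51 and 80 in overloaded MuSCs (log2 fold change 4.01 ± 0.45, adjusted p = 3.39e-06). Cit, the citron kinase of the midbody, had 8 and 12 against 65 and 55 (1.63 ± 0.35, adjusted p = 0.00125). Of the γ-tubulin ring and augmin genes 7 were tested, with 5 higher and 1 lower. Of the 7, 5 were kept through the overloaded libraries alone, Haus2 and Mzt1 among them. Haus2, an augmin subunit, had 8 and 5 UMIs against 29 and 33, and Mzt1, a small subunit of the ring, 8 and 7 against 28 and 31. Mzt2, also a ring protein, was lower, with 22 and 22 against 11 and 15 (-1.71 ± 0.35, adjusted p = 0.000897), a call lost by UMIs per tube (-0.75, adjusted p = 0.133). By DESeq2 the calls of Haus2 (adjusted p = 0.169) and Mzt1 (adjusted p = 0.289) were lost. Without sham replicate 2 they were lost as well (adjusted p = 0.127 and 0.165), and Mzt1 also without sham replicate 1 (adjusted p = 0.118) or overloaded replicate 1 (adjusted p = 0.139).

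Of 19 tubulin folding genes tested, 6 were higher, 1 was lower and 12 did not pass the threshold, and 1 of the 19 passed the filter through the overloaded libraries alone. Tbcb, a cofactor that binds α-tubulin, had 9 and 13 UMIs in sham and 66 and 71 in overloaded MuSCs (1.67 ± 0.30, adjusted p = 0.000314), and Tbca, which binds β-tubulin, 46 and 49 against 109 and 170. The call of Tbca (0.58 ± 0.19) was lost by DESeq2 (adjusted p = 0.167), without sham replicate 1 (adjusted p = 0.145) and without overloaded replicate 2 (adjusted p = 0.133). Pfdn5, a prefoldin subunit, was the lower gene, with 72 and 66 against 68 and 67 UMIs (-0.99 ± 0.20, adjusted p = 0.000738), but by UMIs per tube it was at -0.032 (adjusted p = 0.92). Among tubulin-modifying enzymes 3 of 10 were higher and 2 lower, but 2 of the 10 passed the filter through the overloaded libraries alone and 1 through the sham libraries alone. Vash2 was kept through the overloaded libraries and Hdac6 through the sham libraries, so a difference was required for each. Svbp, the partner of the vasohibins that remove the terminal tyrosine of α-tubulin, had 15 and 6 UMIs against 74 and 96 (2.05 ± 0.31, adjusted p = 6.23e-05), and Vash2, a vasohibin, had 0 and 2 against 12 and 29. The deacetylases Sirt2 and Hdac6 were lower after TMM scaling (-0.60 and -1.03), although by UMIs per tube Sirt2 was at 0.36 and Hdac6 at -0.073. By DESeq2 both calls were lost (adjusted p = 0.14 and 0.376). That of Hdac6 was also lost with the replicate number as a block (adjusted p = 0.104), and without sham replicate 1 (adjusted p = 0.146), sham replicate 2 (adjusted p = 0.173) or overloaded replicate 1 (-0.73, adjusted p = 0.313).

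Of the kinesin light chains and cargo adaptors 12 were tested, 1 of them (Rhot2) kept through the overloaded libraries alone, with 2 higher and 3 lower. Klc1, a light chain of conventional kinesin, had 25 and 46 UMIs in sham and 81 and 123 in overloaded MuSCs (0.55 ± 0.25, adjusted p = 0.0779), and Rhot2, a mitochondrial anchor of motors, 8 and 7 against 19 and 36. Neither call was firm, since Klc1 was at 0.15 without sham replicate 1 (adjusted p = 0.70), 0.42 without overloaded replicate 2 (adjusted p = 0.216) and not past the threshold by DESeq2 (adjusted p = 0.306). Rhot2 was not past it by DESeq2 (adjusted p = 0.396) or limma-voom (adjusted p = 0.136), nor without sham replicate 1 (adjusted p = 0.175), sham replicate 2 (adjusted p = 0.236) or overloaded replicate 2 (0.56, adjusted p = 0.442). Spag9 and Trak1, both adaptors of kinesin-1, were lower, Spag9 with 118 and 124 against 86 and 141 UMIs (-1.07 ± 0.18, adjusted p = 0.000136) and Trak1 with 43 and 50 against 41 and 43. By UMIs per tube neither call held, with Spag9 at -0.092 (adjusted p = 0.738) and Trak1 at -0.15 (adjusted p = 0.698). Of the dynein and dynactin genes, which serve transport toward the minus end, 7 of 19 were higher and 4 lower, that is 11 of 19 past the threshold against 52.1% of all genes tested, and 1 of the 19 was kept through the overloaded libraries alone. Dynlrb1, a light chain, was higher (0.87 ± 0.19), as was Dync1i2, an intermediate chain (0.52 ± 0.19), except by DESeq2 (adjusted p = 0.22) and without sham replicate 2 (adjusted p = 0.234). The regulators Pafah1b1 and Ndel1 were lower (-0.62 and -0.86) but above 0 by UMIs per tube (0.34 and 0.11), and the call of Pafah1b1 was lost without sham replicate 2 (adjusted p = 0.116).

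Of 18 microtubule-associated proteins tested, 3 were higher and 9 lower after TMM scaling, against 25.8% and 26.3% of all genes tested. Stmn1 was among the 2 of the 18 that passed the filter through the overloaded libraries alone, so a difference was required for it. Stmn1, the tubulin-sequestering protein stathmin, was higher, with 4 and 7 UMIs in sham and 67 and 73 in overloaded MuSCs (2.69 ± 0.36, adjusted p = 1.79e-05), as was Clasp2, which stabilizes growing ends (0.60 ± 0.23), although the call of Clasp2 was lost by DESeq2 (adjusted p = 0.226) and without sham replicate 2 (0.32, adjusted p = 0.394). Mapre1, the end-binding protein, had 176 and 143 against 151 and 180 UMIs (-0.90 ± 0.16), and its value by UMIs per tube was 0.053. With offsets on abundance its call was lost (-0.11, adjusted p = 0.566). Map1b was lower by TMM (-0.42 ± 0.17) but higher with offsets on abundance (0.47, adjusted p = 0.00948) and by UMIs per tube. Its lower call was lost by DESeq2 (adjusted p = 0.189), without either sham library (adjusted p = 0.236 and 0.20) and without overloaded replicate 2 (-0.21, adjusted p = 0.225).

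Markers of other cell types were read in the same libraries. The 13 leukocyte markers had 2 and 6 UMIs in sham and 82 and 199 in overloaded libraries, led by Lyz2 with 0 and 0 against 17 and 38, and 10 of the 13 had no UMI in sham. Lyz2 and Cd74 (0 and 0 against 17 and 27) were the 2 that were tested, and both passed the filter through the overloaded libraries alone. Mature myofiber markers had 390 and 199 against 1195 and 1441 UMIs, led by Acta1 with 120 and 66 against 299 and 342. Of these markers 6 of 6 tested were higher, and Tnnc2 was not listed in the count table. The call of Acta1 (0.83 ± 0.20) was lost without sham replicate 2 (0.49, adjusted p = 0.165), and Tnnt3 had 76 and 45 against 225 and 318 UMIs (1.20 ± 0.20). Mural markers, led by Acta2, had 177 and 159 against 474 and 679 UMIs, or 770 and 720 against 1232 and 1375 CPM. Acta2 carried most of this sum, with 115 and 109 against 356 and 493 UMIs (0.95 ± 0.16). Of the 4 mural markers tested, Acta2 and Rgs5 (13 and 4 against 38 and 86 UMIs, 1.88 ± 0.42) were higher and Tagln was lower, with 41 and 36 against 49 and 49 UMIs (-0.61 ± 0.24, adjusted p = 0.0453). The call of Tagln was lost by DESeq2 (adjusted p = 0.292) and without sham replicate 1 (adjusted p = 0.172) or overloaded replicate 2 (adjusted p = 0.279), and by UMIs per tube it was at 0.35. Schwann and neuronal markers, led by Ngfr, stood at 17.4 and 36.2 against 59.8 and 52.7 CPM. Fibroblast markers, led by Dcn, had 258 and 264 against 268 and 318 UMIs, or 1123 and 1196 against 697 and 644 CPM, with 3 of 4 tested lower. The fourth was Ly6a, with 1 and 0 against 22 and 41 UMIs, which passed the filter through the overloaded libraries alone. Dpt had 131 and 126 against 82 and 104 UMIs (-1.43 ± 0.17, adjusted p = 4.59e-06). Dcn had 85 and 93 against 125 and 141 (-0.38 ± 0.17, adjusted p = 0.0851), but its call was lost by DESeq2 (adjusted p = 0.352) and without sham replicate 1 (adjusted p = 0.141), sham replicate 2 (adjusted p = 0.414) or overloaded replicate 2 (adjusted p = 0.232), and by UMIs per tube it was higher (0.58, adjusted p = 0.0237). Endothelial markers had 27 and 20 against 48 and 61 UMIs, or 118 and 90.6 against 125 and 124 CPM, while their most abundant gene Tek had 10 and 12 against 5 and 11 UMIs. Tek passed the filter through the sham libraries alone, and its lower call (-1.41, adjusted p = 0.0154) was lost by DESeq2 (adjusted p = 0.195), by UMIs per tube (adjusted p = 0.451) and without overloaded replicate 1 (adjusted p = 0.115). Erythroid and platelet markers, led by Hbb-bs, had 126, 8, 33 and 260 and followed no group. The summed CPM of leukocyte, myofiber, mural, endothelial, and Schwann and neuronal markers were thus above both sham libraries in both overloaded libraries. The same held for the sum of all 13 mitotic kinesins, for Tubb5 and for Tuba1b, but not for Tagln of the mural list or Tek of the endothelial list. For the 6 mitotic kinesins tested singly, the filter had fixed this order. In bulk samples, RNA of these lists from other cells cannot be told apart from the same RNA made by the labeled cells. The part of other cell types in the results was not tested. Of the MuSC markers 2 of 10 were higher and 5 lower. Together they had 1580 and 1351 UMIs in sham against 1970 and 2258 in overloaded libraries, or 6877 and 6120 against 5122 and 4573 CPM. Itga7 (0.67 ± 0.17) and Cdh15 (0.47 ± 0.18) were the higher genes, with the call of Cdh15 lost by DESeq2 (adjusted p = 0.24) and without sham replicate 1 (adjusted p = 0.27), sham replicate 2 (adjusted p = 0.113) or overloaded replicate 1 (adjusted p = 0.165). Lower were Sdc4 and Vcam1 among others by TMM (-0.91 and -0.90) but not by UMIs per tube (0.028 and 0.055). With offsets on abundance neither passed the threshold (0.20, adjusted p = 0.297, and -0.021, adjusted p = 0.92).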

How the data were processed

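RNA-seq data of 4 CEL-Seq2 libraries were used. The authors extracted barcodes and UMIs of 6 bases with UMI-tools (version 1.0.0), aligned reads to GRCm38 with HISAT2 (version 2.1.0), assigned them to genes with featureCounts (version 1.6.4) and deposited raw UMI counts per gene. The annotation release and the strand setting are not given in the sources used here. Without a known strand setting, reads of overlapping antisense genes cannot be told apart. For the members they include Gm31749 for Kif22, Pdzd11 for Kif4, Mettl15 for Kif18a, Cdc23 for Kif20a, AC113003.1 and Gm17036 for Kif5b, Dimt1 for Kif2a, Gm16564 for Kif26b, Ticrr and 9330171B17Rik for Kif7, Cyhr1 for Kifc2, 4933428P19Rik for Kif1bp, Gm41396 for Tuba1b, Stk16 for Tuba4a, Gm15856 for Tuba8 and Fam166a for Tubb4b, and Gm49450 overlaps Tuba1a and Tuba1b on the same strand. All 19353 identifiers matched the GENCODE annotation of GRCm38, which gave gene positions.

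Counts were scaled by TMM and filtered by filterByExpr (minimum count 10, minimum total 15) with edgeR version 4.0.16 under R version 4.3.3 and tested by glmQLFit and glmQLFTest with a spread common to both groups. The 7228 genes kept gave a common coefficient of variation of 9.50%. P-values were adjusted by Benjamini-Hochberg over them, with a threshold of 0.1, and 3732 genes had an unadjusted p under 0.05. The prior count was 0.125. Fitted values of genes with no count in a group depend on it, so bounds use a floor of 3 counts over the group. Intervals of ratios and shares are exact (Clopper-Pearson, 95%), and these and the floors cover counting error only. Alternatives were DESeq2 (version 1.42.0), limma-voom (limma version 3.58.1), other scalings and filters, thinning to the smallest library, the replicate number as a block and each library left out. A planned comparison of tubulin proteins was not run. Python version 3.11.15 with pandas version 2.3.3 and scipy version 1.17.1 was used for counts of members and intervals.

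The genes, classes, lists and tests were chosen with earlier results of these data known. Named with values were the tested members past the threshold, the mitotic kinesins and tubulins with 10 or more UMIs, the 6 most abundant other tested members, and the 2 most abundant called genes in each direction of each list. Other members are given to account for all 52.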

Additional observations from a re-analysis of the deposited data

How the results depend on the processing

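When single libraries were dropped, fitted values of the 6 tested mitotic kinesins lay between 2.54 (Kif15) and 7.74 (Kif22), both without sham replicate 1. The filter had kept these 6 through the overloaded libraries alone, so their staying above 0 is no sign of stability. Tubb5 lay between 1.25 and 1.55, and Tuba1c between -1.38 and -1.14. The transport kinesin Kif13a, at -0.41 with all libraries, was at -0.85 without overloaded replicate 1 and at -0.0069 without overloaded replicate 2. A lone library in a group was assumed to vary like the other group. DESeq2 called 2182 genes in place of 3766. The share of higher calls was 49.6%, against 66.6% by library sizes alone and 93.1% by UMIs per tube. The number of mitotic kinesins past the threshold was 6 of 6 tested, against 0 of 6 with offsets on the mean log value. It was 4 of 4 after thinning and 8 of 8 with at least 10 counts in every library of a group. It was 8 of 13 with DESeq2 and 9 of 13 with no filter. Because of how the filter kept them, 6 of 6 is no count in support. With all 4 libraries kept, transport kinesins past the threshold were 0 of 6 tested, against 4 of 6 by UMIs per tube. They were 1 of 6 with offsets on abundance or on the mean log value, 1 of 13 with no filter and 1 of 7 with at least 10 counts in every library of a group. Other kinesins past the threshold were 0 of 2 tested, against 1 of 2 by UMIs per tube and 1 of 11 with no filter. By UMIs per tube, the ratio of summed UMIs was 1.94 for transport kinesins in place of 1.18 as a share of all UMIs, 2.22 for other kinesins in place of 1.35, 2.42 for α-tubulins in place of 1.47, 1.96 for β-tubulins in place of 1.19 and 2.13 for all tubulins in place of 1.29. With TMM scaling these ratios were 0.995 for transport kinesins, 1.14 for other kinesins, 1.24 for α-tubulins, 1.01 for β-tubulins, 1.09 for all tubulins and 28.1 for mitotic kinesins. The cause of these differences was not tested.

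Some log2 fold changes changed sign. By UMIs per tube this held for Tubb6 0.27, Tubb2a 0.30, Kif3a 0.74, Kif13a 0.53, Kif21a 0.82, Kif1b 0.86, Pafah1b1 0.34, Ndel1 0.11, Map1b 0.53, Mapre1 0.053, Sirt2 0.36, Sdc4 0.028, Vcam1 0.055, Dcn 0.58 and Tagln 0.35. By library sizes alone it held for Kif3a 0.070, Kif21a 0.14 and Kif1b 0.19. With offsets on abundance it held for Kif1c -0.021, Tuba4a -0.070, Tubb2b -0.060, Tubb2a 0.11, Kif1b 0.15, Pafah1b1 0.029, Map1b 0.47, Sdc4 0.20 and Dcn 0.18. With offsets on the mean log value it held for Tuba4a -0.016, Tubb2b -0.000893, Tubb2a 0.11, Kif1b 0.22, Pafah1b1 0.043, Map1b 0.45, Sdc4 0.12 and Dcn 0.21. It also held for Tuba4a by limma-voom (-0.043), for Kif5b (-0.057) and Tubb2b (-0.013) with at least 10 counts in every library of a group, and for Kif21a (0.084) and Tubb2b (-0.084) after thinning. With single libraries left out, the range crossed 0 for Kif13b (-0.16 to 0.61), Kif1b (-0.24 to 0.076), Kif1c (-0.075 to 0.35), Kif21a (-0.35 to 0.12), Kif2a (-0.030 to 0.35), Kif3a (-0.79 to 0.73), Kif5b (-0.028 to 0.068), Tuba4a (-0.86 to 0.58) and Tubb2b (-0.29 to 0.49). Over all genes named and all alternatives, 54 values changed sign, 105 kept their direction and lost the call, 20 kept it and gained a call, and 789 kept both. Of the tested members, Tubb6 lost its call with both kinds of offset, Kif22, Kif11, Kif20b, Kif23, Kif15 and Kif2c with offsets on mean log value, and Tuba1c by UMIs per tube. Mzt2, Pfdn5, Spag9, Trak1, Hdac6 and Tek also lost their calls by UMIs per tube. With offsets on abundance the calls of Mzt1, Rhot2, Ndel1, Mapre1, Sirt2, Vcam1 and Ngfr were lost. Among other genes named, DESeq2 lost the calls of Haus2, Mzt1, Tbca, Klc1, Rhot2, Dync1i2, Clasp2, Map1b, Sirt2, Hdac6, Cdh15, Dcn, Tek, Tagln and Ngfr.

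With the replicate number as a block, 3670 genes passed the threshold. The counts for transport kinesins (0) and tubulins (6) were those of the fit without the block. So was the count for mitotic kinesins (6), although the filter had fixed the order of their groups. Hdac6 (adjusted p = 0.104) and Ngfr (adjusted p = 0.144) lost their calls. Libraries with the same number did not deviate together (r = -0.03 across 7228 genes, which are not independent), and with 2 pairs the number was treated as a name. This does not show that they came from different mice. The study used the contralateral leg as sham in other assays, and whether it did here is not given in the sources used here. The 27 members that were not tested had too few UMIs for the filter, and low counts made their ratios imprecise. The planned stricter filter kept 7572 genes, more than the filter used.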
